A study of Mus musculus with 6 samples.

Results

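The multidomain members of the BCL-2 family measured here were the anti-apoptotic guardians Bcl2, Bcl2l1 (BCL-XL), Bcl2l2 (BCL-W) and Mcl1 and the pore formers Bak1 and Bok. They were chosen by gene symbol in the platform annotation and make up 6 of 19087 genes and 31 of the 33653 array features that carry 1 gene. Bcl2 and Bcl2l1 had 12 features each, Bcl2l2, Mcl1 and Bak1 had 2 each and Bok had 1. RNA came from mouse sympathetic neurons. The 3 treated samples had received interferon-gamma, a cytokine of activated lymphocytes, at 500 U per ml for 24 h, and the 3 control samples were untreated neurons of the same 24 h. Neuron RNA was labelled with Cy5 and hybridised on 2-colour Agilent arrays against Cy3-labelled RNA of untreated sympathetic cervical ganglia at P5, so each value is a log2 ratio of neurons over ganglion. The labels give no strain, no age of the neurons and no statement that the replicates came from separate cultures, so p-values measure the spread between these arrays, which may be technical.

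The outer mitochondrial membrane holds cytochrome c inside the organelle until pore formers of the BCL-2 family assemble in it. BAK, encoded by Bak1, and its relative BAX form such pores, while BCL-2, BCL-XL, BCL-W and MCL-1 bind pore formers and the BH3-only proteins that activate them. BOK is a related pore former whose protein is turned over by the proteasome. Sympathetic neurons deprived of nerve growth factor are a classic model of this step, because their death needs BAX and cytochrome c release. Bax was not analysed here. The question addressed was whether treated neurons differed from control neurons in RNA of these genes.

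The treatment itself was visible in every treated array. All 9 measured genes of a short list of interferon-gamma targets rose, with differences from 2.29 for Irf1, an early transcription factor of the response, to 7.14 for Gbp3, a guanylate-binding GTPase (limma, adjusted p = 0.00153 for Irf1 and 0.00045 for Gbp3). The 10 measured markers of sympathetic neurons had array medians near the ganglion level, between -0.17 and 0.11 in treated neurons and between -0.32 and 0.24 in control neurons. A ratio shows no absolute level, so it cannot show that a marker is absent. Of 8 measured macrophage markers, 2 passed, C1qa and Fcgr1, both higher in treated neurons (limma, adjusted p = 0.0288 and 0.00151). Ptprc at 0.90, Aif1 at 0.71, C1qb at 0.64 and Adgre1 at 0.62 had differences above 0 that did not pass. Itgam at -0.42 and Mrc1 at -0.46 had differences below 0 that did not pass. At an unadjusted limma p under 0.05 the count was 5 of 8, against 7.95% of all genes. The 8 genes had medians of 0.78, 0.14 and 0.68 on interferon-gamma arrays, against -0.45, -0.43 and -0.12 on control arrays. Fcgr1 is itself induced by interferon-gamma, and the part of macrophage RNA in the values below was not tested. In bulk RNA, fewer cells of a type and less RNA per cell cannot be told apart.

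No change of a member passed the test. With limma's moderated test adjusted over all 19087 genes, 0 of the 6 genes passed an adjusted p of 0.05, where 1.14% of all genes passed (1.12% higher and 0.0210% lower in treated neurons), and their adjusted p ran from 0.671 to 0.997. At an unadjusted p under 0.05 the count was also 0 of 6, against 7.95% of all genes. The treated and control arrays overlapped for all 6 genes, while 13.7% of all genes had groups that did not overlap. With 6 genes, a count of 0 cannot be told apart from any of these shares. The median difference of the 6 genes was -0.02, beside 0.0062 over all genes.

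**Figure D1:**
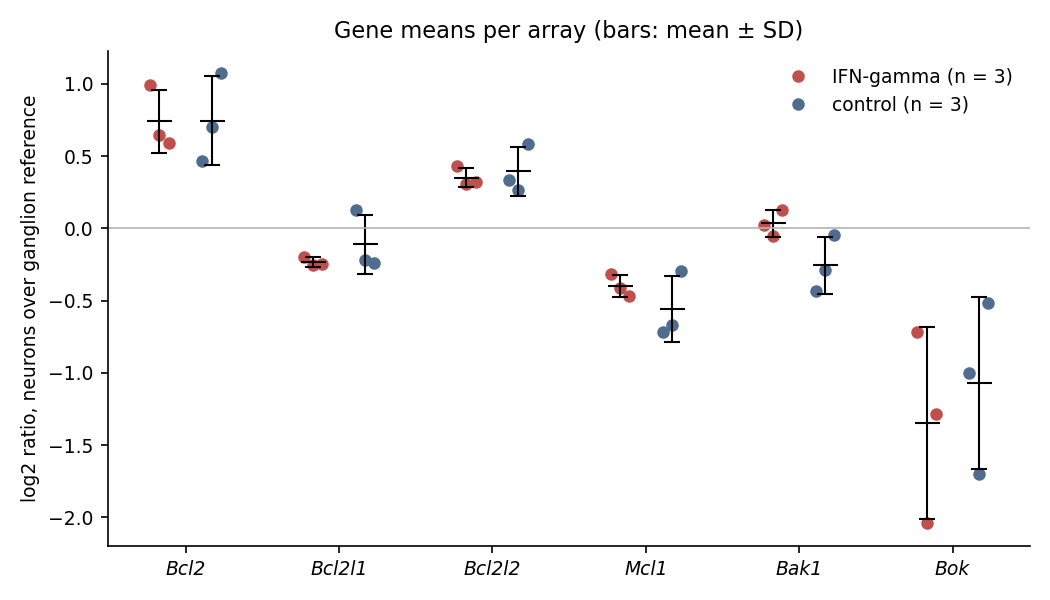
Log2 ratio of neurons over the ganglion reference for the 6 genes (mean over features), with one point per array, 3 interferon-gamma arrays on the left and 3 control arrays on the right of each gene, and bars for mean and SD. The groups overlap for every gene, the largest separation of means is that of Bak1 (0.03 against -0.26), and Bok has the widest spread in both groups.

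Bcl2, the founding guardian and the member with the highest ratio, had nearly equal means in the groups. Its ratios were 0.99, 0.64 and 0.59 on interferon-gamma arrays 1, 2 and 3, against 0.47, 0.70 and 1.07 on control arrays 1, 2 and 3. The highest and the lowest value were both control arrays. The difference was -0.0047 ± 0.20 (SE, n = 3 per group), with a 95% interval of 0.717 to 1.39 times the control level.

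Bcl2l1 encodes BCL-XL, a guardian of mature neurons. It had ratios of -0.20, -0.25 and -0.25 on interferon-gamma arrays, against 0.13, -0.22 and -0.24 on control arrays. Only control array 1 stood away from the other arrays, and without it the difference was -0.0050 in place of -0.12 ± 0.14 (SE). The 95% interval with all arrays was 0.730 to 1.16 times the control level.

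Bcl2l2 encodes BCL-W, a guardian found in neurons. Its ratios were 0.43, 0.31 and 0.32 on interferon-gamma arrays, against 0.33, 0.26 and 0.59 on control arrays. The treated values lay within the control range, and the difference was -0.04 ± 0.13 (SE), with a 95% interval of 0.781 to 1.21 times the control level.

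Mcl1 encodes MCL-1, a guardian with a short-lived RNA and protein. It had ratios of -0.32, -0.41 and -0.47 on interferon-gamma arrays, against -0.72, -0.67 and -0.30 on control arrays. Control arrays 1 and 2 were the lowest and control array 3 the highest. The difference was 0.16 ± 0.15 (SE), with a 95% interval of 0.873 to 1.43 times the control level, and it depended on the control arrays, at 0.084, 0.11 and 0.29 without control array 1, 2 and 3.

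Bak1, the pore former, had the largest positive difference among the members. Its ratios were 0.03, -0.05 and 0.13 on interferon-gamma arrays, against -0.44, -0.29 and -0.04 on control arrays. Interferon-gamma array 2 lay just under control array 3, so the groups overlapped narrowly. The difference was 0.29 ± 0.14 (SE), a 1.22-fold level with a 95% interval of 0.967 to 1.55 (limma, adjusted p = 0.671). Over all genes, 75.0% had a smaller absolute difference.

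Bok, measured by a single feature, was the least certain. Its ratios were -0.71, -2.04 and -1.29 on interferon-gamma arrays, against -0.998, -1.70 and -0.52 on control arrays. Each group spanned more than 1 log2 unit. The difference was -0.27 ± 0.42 (SE), with a 95% interval of 0.412 to 1.66 times the control level, and 93.1% of all genes had a smaller SE.

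The size of change that could have been called followed from these errors. At the largest unadjusted p among the called genes, 0.000559, a difference had to reach 0.82 for Bcl2l2 (1.77-fold), 0.87 for Bcl2l1 (1.82-fold), 0.89 for Bak1 (1.85-fold), 0.94 for Mcl1 (1.91-fold) and 1.25 for Bcl2 (2.37-fold). For Bok it had to reach 2.63 (6.18-fold). Smaller observed differences would not have been called at these SEs. Power to call a true change was not computed, and a missed threshold does not show that the groups were alike.

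Promoter sequence was set beside these values because the interferon-gamma targets on the same arrays did move. Sequences are from RefSeq, build GRCm38.p6, whose table held 8 windows of the 6 genes, 3 of them for Bcl2l1. A window runs from 250 bases before to 50 bases after an annotated start. The core of the interferon-stimulated response element bound by IRF factors, GAAA followed by any 2 bases and GAAA again, was searched on both strands in each window. It was in 0 of the 8 member windows and in 3.44% of all 32851 windows. With 8 windows, a count of 0 cannot be told apart from that share. Of the 11 windows of the 9 risen target genes, 5 had it, in 5 genes (Gbp2, Gbp3, Igtp, Irgm1 and Socs1). A match is a description of letters, and no match says only that these letters are not in these windows. Shown for contrast are the 250 bases before the start of Bcl2 and Bak1, the highest guardian ratio and the largest positive difference, in lower case since the motif was not found, and the surroundings of the motif in Gbp2, with the motif in capitals.
Bcl2 (chr1:106714291-106714540, strand -): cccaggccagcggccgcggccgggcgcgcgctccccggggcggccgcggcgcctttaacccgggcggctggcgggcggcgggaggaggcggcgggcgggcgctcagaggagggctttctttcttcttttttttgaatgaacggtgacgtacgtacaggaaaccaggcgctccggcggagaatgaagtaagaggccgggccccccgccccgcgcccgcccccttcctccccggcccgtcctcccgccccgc
Bak1 (chr17:27028628-27028877, strand -): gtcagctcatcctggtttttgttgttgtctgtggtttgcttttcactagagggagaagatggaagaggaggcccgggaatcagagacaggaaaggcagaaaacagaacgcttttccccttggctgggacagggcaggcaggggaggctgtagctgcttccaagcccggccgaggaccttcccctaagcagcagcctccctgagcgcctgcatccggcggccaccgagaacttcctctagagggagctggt
Gbp2 (chr3:142620584-142620633, strand +): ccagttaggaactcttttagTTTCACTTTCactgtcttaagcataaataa
The Bcl2 stretch holds 36 CG dinucleotides and is 74.8% G and C, and the Bak1 stretch holds 8 and is 58.4% G and C. In Gbp2 the motif starts 59 bases before the start of transcription, as the reverse complement of the IRF core.

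Single features gave the same count of calls and showed where genes rest on unlike probes. None of the 31 features passed (limma over 33653 features, adjusted p from 0.573 to 0.978), where 1.01% of all features did. One had an unadjusted p under 0.05, against 7.89% of all features. The groups did not overlap for 4 of the 31 (12.9%), with 2 higher and 2 lower in treated neurons, beside 13.3% of all features (7.69% higher). By sign, 15 features were above 0 and 16 below. Of those above 0, 10 were features of Bcl2, and of those below, 11 were features of Bcl2l1. Features of the same gene are not separate observations, so these counts are descriptions.

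**Figure D2:**
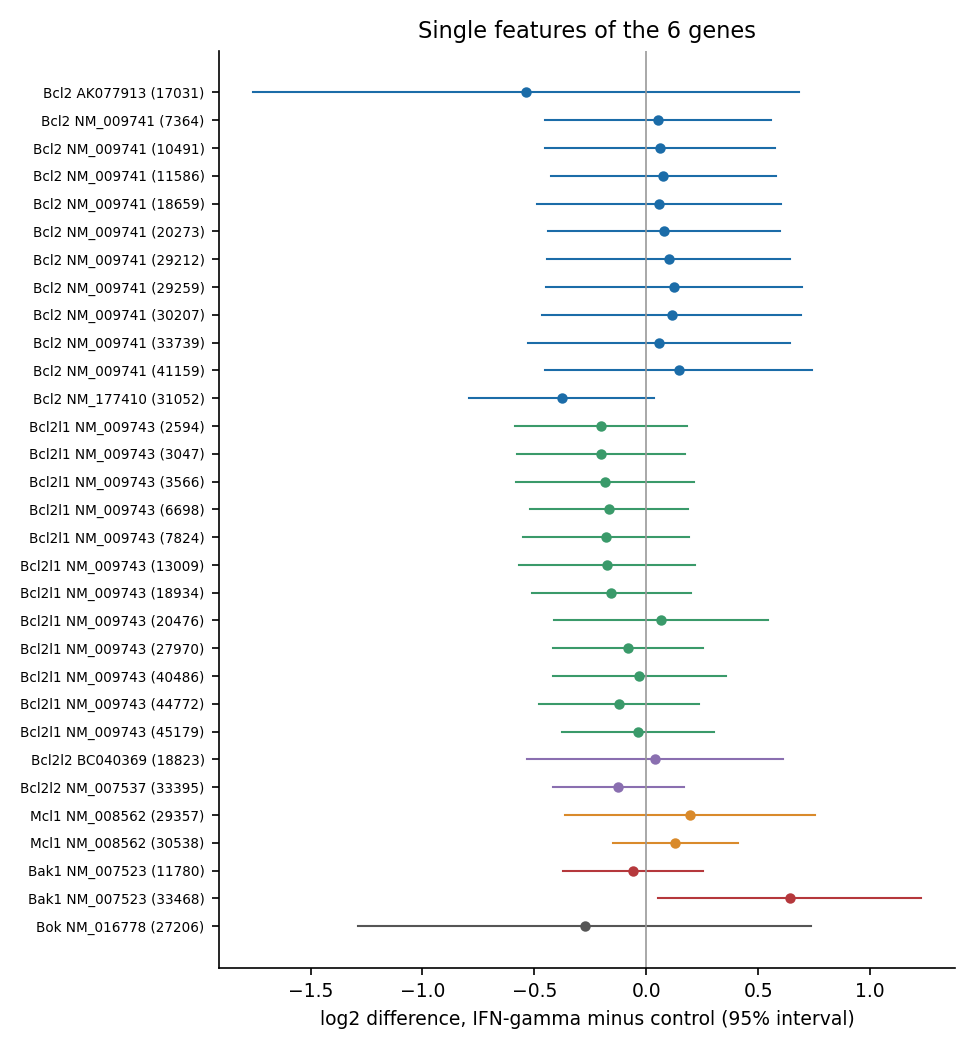
Log2 difference, interferon-gamma minus control, of the 31 single features with 95% intervals, by gene, with the accession and feature number of the platform. Of the 31 intervals, 30 hold 0, and the exception is feature 33468 of Bak1, at 0.64.

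The difference of Bak1 lay in 1 of its features. Feature 33468 had ratios of 0.21, 0.03 and 0.21 on interferon-gamma arrays, against -0.96, -0.49 and -0.02 on control arrays. Its groups did not overlap, and its difference was 0.64 ± 0.24 (SE; limma, unadjusted p = 0.0373, adjusted p = 0.573), or 0.41 without control array 1. Feature 11780, annotated to the same RefSeq transcript, had -0.16, -0.13 and 0.05 on interferon-gamma arrays, against 0.09, -0.09 and -0.06 on control arrays. These groups overlapped, and the difference was -0.06 ± 0.13 (SE). The gap of the first feature over the second was 0.36, 0.16 and 0.16 on interferon-gamma arrays, against -1.05, -0.41 and 0.04 on control arrays. An exact permutation test of this gap gave p = 0.10 (two-sided), the smallest that 3 against 3 arrays allow, and an adjusted p of 0.50 over the 5 pairs of features compared.

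Most features of Bcl2 were near copies of each other. The 10 annotated to NM_009741 stayed within an SD of 0.02 to 0.08 of each other on any array, while their mean varied between arrays with an SD of 0.29 in treated and 0.32 in control neurons. Their differences ran from 0.05 to 0.14. For this set the spread between arrays was wider than the spread between features.

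The remaining features of Bcl2 had differences below 0. AK077913, with the highest ratios of all members, had 1.20, 2.40 and 0.82 on interferon-gamma arrays, against 1.20, 2.34 and 2.51 on control arrays. Its difference was -0.54 ± 0.51 (SE; limma, adjusted p = 0.828), and it ran from -1.002 without interferon-gamma array 2 to -0.21 without interferon-gamma array 3. Interferon-gamma arrays 1 and 3 and control array 1 were low, and these 3 also had the smallest SD over all features, 0.63, 0.66 and 0.63, against 0.75 to 0.88 on the other arrays. With scale normalization the difference was -0.47 ± 0.42 (SE; limma, adjusted p = 0.782). With quantile normalization it was -0.61 ± 0.29 (SE; limma, adjusted p = 0.606). The cause of the low values on these 3 arrays was not tested.

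NM_177410, another RefSeq transcript of Bcl2, had 0.13, 0.40 and -0.08 on interferon-gamma arrays, against 0.71, 0.41 and 0.47 on control arrays. All treated values were below all control values, by a margin under 0.01 between interferon-gamma array 2 and control array 2. The difference was -0.38 ± 0.17 (SE; limma, adjusted p = 0.669). Set against the 10 copies on each array, the exact permutation test gave p = 0.30 for this feature and p = 0.40 for AK077913, both 0.667 after adjustment over the 5 pairs. The copies outnumber the other features in the gene mean. Their own mean differed by 0.086, and with the 2 other features below 0 the gene mean differed by -0.0047. With the features averaged within an accession first, Bcl2 stood at -0.28 (limma, adjusted p = 0.802).

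The 12 features of Bcl2l1 shared 1 RefSeq transcript and split by level. Feature 40486 was the lowest, at -0.86, -0.98 and -1.30 on interferon-gamma arrays, against -0.96, -0.94 and -1.16 on control arrays, and its groups overlapped, with a difference of -0.03 ± 0.16 (SE). Feature 20476 had -0.38, -0.46 and -0.23 on interferon-gamma arrays, against -0.03, -0.55 and -0.69 on control arrays. The other 10, a group set apart after their values were seen, lay between -0.31 and 0.04 on interferon-gamma arrays and between -0.19 and 0.34 on control arrays, and all 10 differences were below 0, from -0.20 to -0.04. Control array 1, where the 10 had a mean of 0.25, was the highest in this set as in the gene mean.

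**Figure D3:**
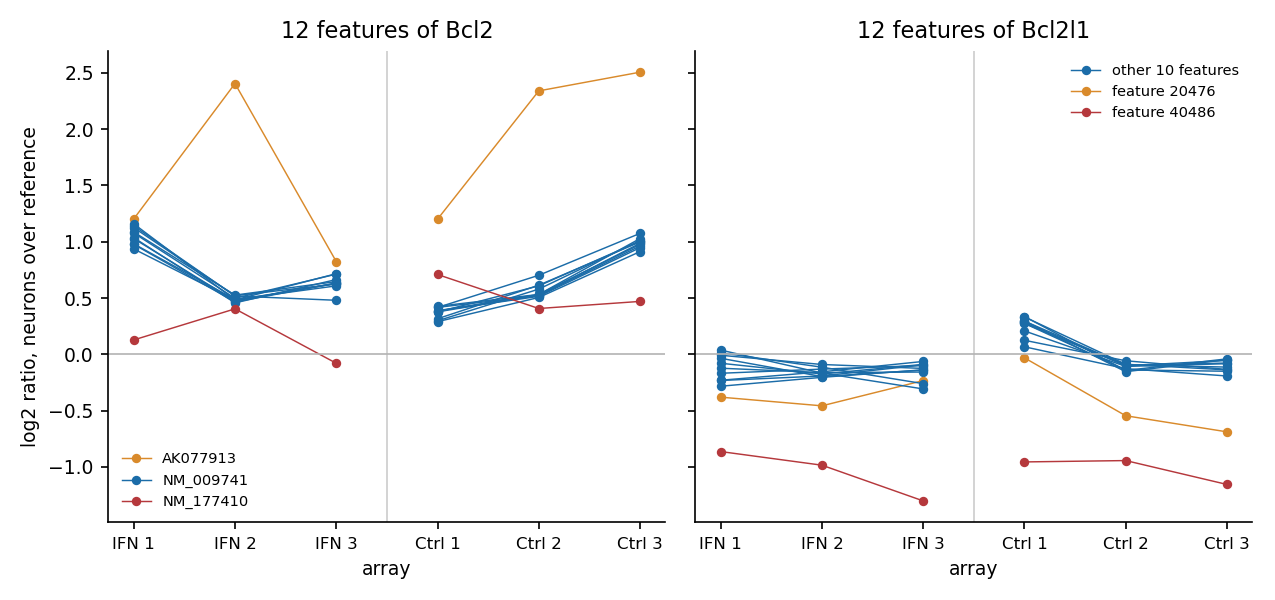
Log2 ratio of neurons over reference for the 12 features of Bcl2 (left) and of Bcl2l1 (right) on each array, 3 interferon-gamma arrays before 3 control arrays; lines join values of the same feature and carry no order. The 10 close features of Bcl2 move together from array to array, those of Bcl2l1 are each highest on control array 1, and AK077913 of Bcl2 and feature 40486 of Bcl2l1 keep apart from them on most arrays.

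Mcl1 and Bcl2l2 had a pair of features each. Feature 30538 of Mcl1 had -0.20, -0.19 and -0.25 on interferon-gamma arrays, against -0.31, -0.42 and -0.30 on control arrays. All treated values were above all control values, and the difference was 0.13 ± 0.12 (SE; limma, adjusted p = 0.817). Feature 29357 of Mcl1 had -0.44, -0.64 and -0.69 on interferon-gamma arrays, against -1.13, -0.92 and -0.30 on control arrays, with overlapping groups and a difference of 0.19 ± 0.23 (SE), which ran from 0.021 without control array 1 to 0.43 without control array 3. For Bcl2l2, the features of BC040369 and NM_007537 had treated means of 0.72 and -0.02 and control means of 0.68 and 0.11, so one was above the ganglion level and the other near it. The exact permutation tests of these pairs gave p = 0.80 for Mcl1 and p = 0.70 for Bcl2l2, both 0.80 after adjustment. With 0.10 as the smallest p allowed, these tests do not show that the features of a pair agree.

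Relative to the ganglion, the genes kept nearly the same order in both groups. These are ratios of each gene to its own reference level, given as a description, and they do not rank abundance. In treated neurons the order of the means ran Bcl2 at 0.74 ± 0.22 (SD, n = 3), Bcl2l2 at 0.35 ± 0.07, Bak1 at 0.03 ± 0.09, Bcl2l1 at -0.23 ± 0.03, Mcl1 at -0.40 ± 0.08 and Bok at -1.35 ± 0.66. In control neurons it ran Bcl2 at 0.75 ± 0.31 (SD, n = 3), Bcl2l2 at 0.39 ± 0.17, Bcl2l1 at -0.11 ± 0.20, Bak1 at -0.26 ± 0.20, Mcl1 at -0.56 ± 0.23 and Bok at -1.07 ± 0.59. Bak1 and Bcl2l1 traded places. No neighbours overlapped among the treated arrays, and among the control arrays only Bcl2l2 and Bcl2l1 stood clear of each other. The mean of the 4 guardians minus Bak1 was 0.20, 0.12 and -0.08 on interferon-gamma arrays, against 0.49, 0.31 and 0.32 on control arrays. The guardian mean alone overlapped, at 0.23, 0.07 and 0.05 against 0.05, 0.02 and 0.28. The gap thus mostly repeats the difference of Bak1, with its discordant features, and was not tested. Mcl1 minus Bak1 overlapped between the groups. Bcl2l1 minus Bak1 narrowly did not, at -0.199 on interferon-gamma array 2 against -0.195 on control array 3. These 2 gaps were not tested either, and no share over other pairs of genes was computed.

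Bok was lowest on interferon-gamma array 2 and control array 2. On these 2 arrays the medians of 8 satellite and Schwann cell markers were also lowest, at -1.14 and -0.87, against -0.42 to -0.17 on the other arrays. The medians of 10 fibroblast markers were -1.34 and -0.75 there, against -0.02 to 0.53 elsewhere, and those of 10 endothelial markers -0.92 and -0.93, against -0.66 to -0.28. The macrophage median shared this in part. On interferon-gamma array 2 it was 0.14, the lowest of its group beside 0.78 and 0.68, though above all control arrays. On control array 2 it was -0.43, near the lowest control at -0.45, with the third at -0.12. The part of such cells in the ratio of Bok was not tested.

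**Figure D4:**
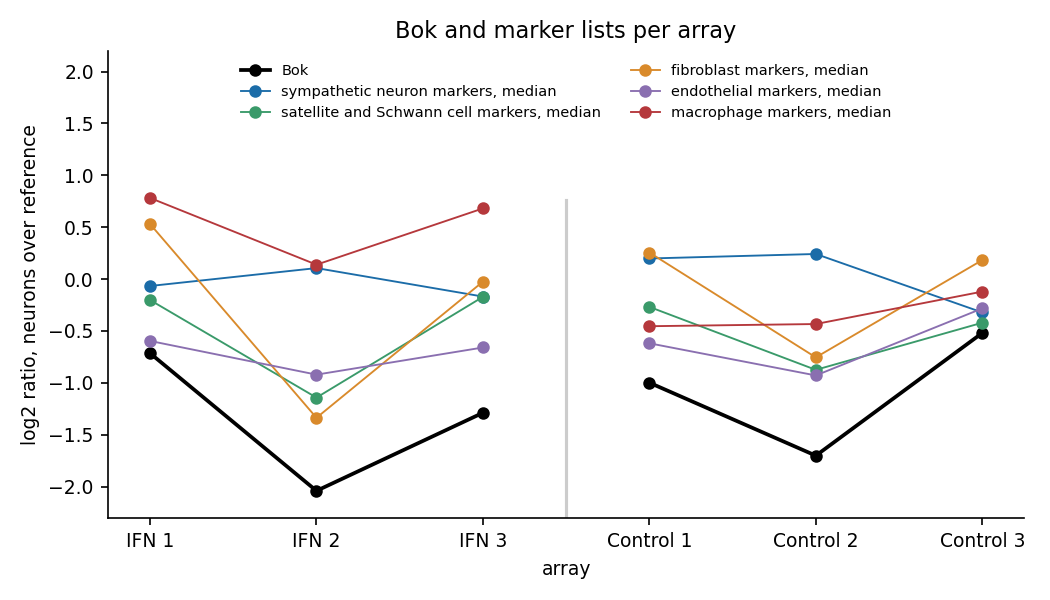
Log2 ratio of Bok and the median ratios of 5 marker lists on each array, 3 interferon-gamma arrays before 3 control arrays; lines join values of the same item and carry no order. Bok and the glial and fibroblast medians are at their lowest on array 2 of each group, while the macrophage median is higher on all interferon-gamma arrays than on any control array.

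The genes whose pattern over the 6 arrays was most like that of each member were found by correlation. The highest Pearson's r, across 6 arrays and without a test, was 0.994 for Bcl2 with Nsmaf, 0.999 for Bcl2l1 with Man1c1, 0.993 for Bcl2l2 with LOC433198, 0.991 for Mcl1 with Gskip, 0.995 for Bak1 with Hsp90aa1 and 0.999 for Bok with Egfr. The second nearest were Ppp1r2, Prpf38b, Glt8d2, Morn2, Ssbp1 and Cyp2c38 in the same order of members. Between 170 genes for Bcl2 and 361 for Bok had an r above 0.9, and none of the 12 named genes passed the threshold.

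Other genes of the mitochondrial pathway were likewise without a call, where 1.14% of all genes passed. In each list below, a count of 0 cannot be told apart from that share. Among the other BCL-2 relatives, 0 of 7 measured genes passed, with a list median of 0.03. Their extremes were Bcl2a1c, of the A1 family of guardians, at 0.65, and Bcl2l10 at -0.21. The A1 genes are near-identical copies, so a feature of one can bind RNA of another. Among BH3-only genes 0 of 11 passed (median 0.12). Their extremes were Bbc3, which encodes PUMA, at 0.51, and Bad, which binds BCL-XL, at -0.41.

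Of 14 genes whose products regulate or bind MCL-1 and BCL-2, 0 passed (median -0.09). The extremes were Marchf5, a ubiquitin ligase of the outer membrane, at 0.42 and Usp9x, which removes ubiquitin from MCL-1, at -0.55. Of 14 mitochondrial membrane partners, a list that also holds Opa1 and Immt of the inner membrane, 0 passed (median 0.03). They lay between Mtch2, a receptor for BID, at -0.24 and Tomm40, the import channel, at 0.19. Of 11 genes of the steps after cytochrome c release 0 passed (median 0.03), between Diablo, which antagonises inhibitors of apoptosis, at -0.32 and Aifm1, a flavoprotein of mitochondria, at 0.42. By unadjusted p under 0.05 the counts in these 5 lists were 1, 1, 1, 0 and 2 genes, against 7.95% of all genes. In list order they were Bcl2a1c, Bid at 0.43, Marchf5, and then Diablo and Aifm1.

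**Figure D5:**
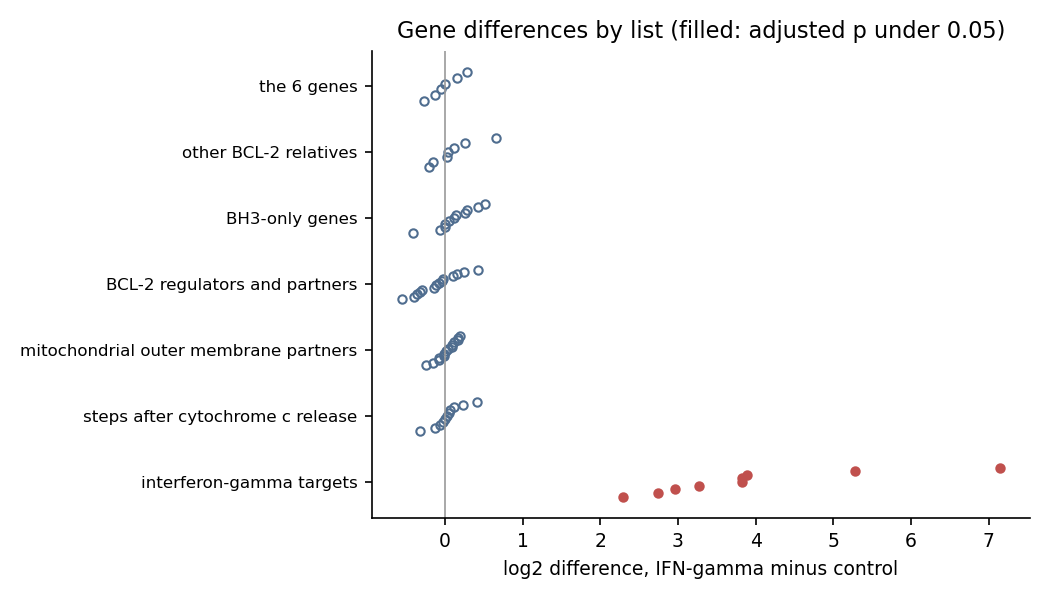
Log2 difference, interferon-gamma minus control, of single genes by list; filled points passed an adjusted p of 0.05 (limma, all 19087 genes). All 9 interferon-gamma targets lie at 2.29 or above, and every gene of the other 6 lists lies between -0.55 and 0.65.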

How the data were processed

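The authors deposited 1 value per feature and array, taken here as a log2 ratio made by image reading and normalization within the array. Image reading was taken to be with Agilent Feature Extraction. Its version, background correction and dye normalization are not given in the sources used here. Base 2 was inferred from the range of the values. The direction, neurons over ganglion, follows from Cy5 on neuron RNA if ratios are red over green. Dyes were not swapped. Array medians were 0 to 0.005, so the authors' values were centred within arrays. Signal and background were not analysed here, so dim features could not be filtered.

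Of 45220 features, 33653 had 1 gene in the platform annotation, 33517 of them matched by gene number to RefSeq GRCm38.p6 for symbols. The sources used here name no genome build for the arrays, so features have no coordinates here; those of promoters are RefSeq's. A gene's value was the mean over its features. All 6 arrays were fitted with limma 3.58.1 in R 4.3.3 (lmFit, eBayes, two-sided, Benjamini-Hochberg over all genes or features, threshold 0.05), which was tested on simulated data. Gaps between features were compared with exact permutation tests in scipy 1.17.1. Groups follow the source names of the Cy5 channel. The 5 feature pairs were chosen after values were seen. Named genes were the members, the genes past the threshold or the extremes of each list, and the 2 genes most alike to each member. The members and lists were chosen with earlier results of these data known. Alternatives left out each array, blocked by replicate number, changed the normalization, weights, moderation, zeros, filter or summary over features, and removed a trend over feature number. One promoter motif is not reported here.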

Additional observations from a re-analysis of the deposited data

How the results depend on the processing

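With any of the 6 arrays left out, 0 member genes and 0 member features passed, and the same held for all other settings tried; the lowest adjusted p over the alternatives was 0.355 for a gene (Bak1 with array weights) and 0.273 for a feature. The number of genes past the threshold, 217, ran from 113 without interferon-gamma array 3 to 508 without interferon-gamma array 2. It was 134 without interferon-gamma array 1, and 136, 133 and 162 without control arrays 1, 2 and 3. For features, 339, it ran from 158 to 751, and quantile normalization gave 179. Gene differences smaller than their SE changed sign, those of Bcl2, Bcl2l1, Bcl2l2 and Bok, the last at -0.27 ± 0.42 (SE). Leaving out 1 array gave Bcl2 -0.14 to 0.16, Bcl2l2 -0.11 to 0.052 and Bok -0.59 to 0.072. Quantile normalization gave 0.10 for Bcl2 and 0.018 for Bcl2l2, scale normalization 0.063 for Bcl2, the median over features 0.088 for Bcl2, and the feature of highest SD 0.065 for Bcl2l1, 0.038 for Bcl2l2 and, with its sign kept, -0.54 for Bcl2. Over left-out arrays the Bcl2 features of NM_009741 ran from -0.075 to 0.23, -0.083 to 0.23, -0.069 to 0.24, -0.10 to 0.24, -0.081 to 0.24, -0.058 to 0.27, -0.043 to 0.31, -0.0702 to 0.29, -0.13 to 0.23 and -0.07 to 0.32, in order of feature number. Features of Bcl2l1 ran from -0.069 to 0.26, -0.14 to 0.021, -0.12 to 0.094 and -0.10 to 0.0395, and the Bcl2l2 feature of BC040369 from -0.12 to 0.28. The cause of these changes was not tested. Deviations of same-numbered arrays correlated at 0.064, 0.31 and -0.031 for numbers 1, 2 and 3, not above 0.1 in every pair, so the numbers were not taken as pairs. With the replicate block 166 genes and 0 members passed, and Bok stood at -0.27 ± 0.23 (SE), against 0.42 for the SE without it. The filter on low SD kept Bcl2 and Bok among the genes. Precision is limited by 3 arrays a group and by unknown signal over background.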

Other observations

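The close features of Bcl2 and Bcl2l1 allowed values to be read along the feature number, which the platform assigns to each position in its list. On interferon-gamma array 1 the 10 close features of Bcl2 increased with feature number and spanned 0.94 to 1.16 (Pearson's r = 0.964 over 10 features of 1 array, a description), and the 10 of Bcl2l1 spanned -0.28 to 0.04 (r = 0.882). On control array 1 and interferon-gamma array 3 those of Bcl2l1 went the other way (r = -0.912 and -0.836). Over all features the sign was the same there. The median of the last 10% of feature numbers, against the first 10%, was 0.11 against -0.17 on interferon-gamma array 1, -0.07 against 0.07 on interferon-gamma array 3 and -0.07 against 0.05 on control array 1. With this trend removed, in an alternative chosen after seeing the data, Bcl2l1 stood at -0.10 and Bcl2 at -0.0021, and no member passed.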
